A study of Mus musculus with 18 samples.

Results

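The 4 Hox clusters of the mouse were examined through the chromosome contacts called around them. The members were chosen by position, as every loop of the deposited list with at least 1 anchor in a window around a cluster, and 41 of 20926 loops (0.196%) qualified. A loop marks a contact between distant stretches of DNA, called anchors, that was scored as stronger than the contacts around it. A domain is a piece of a chromosome in which contacts are more frequent inside than across its edges, and those edges are its boundaries. Domains were taken within 1 Mb of the windows, which gave 56 of 13483 domains. The 38 Hox genes considered were 10 at Hoxa, 10 at Hoxb, 9 at Hoxc and 9 at Hoxd.

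The contacts came from Micro-C, in which chromatin is cut between nucleosomes and DNA ends lying close together are ligated and sequenced. The cells were G1E-ER4 erythroblasts, a mouse line in which activity of the red cell factor GATA1 is under the control of a hormone, in an LDB1-AID subline. LDB1 is an adaptor that joins proteins bound at distant sites, and the AID tag generally lets auxin trigger loss of the tagged protein. There were 9 untreated samples and 9 samples given auxin for 4 h, all of the same LDB1-AID subline, and whether that subline is a single clone is not given in the sources used here. The loop list and the domain list are each 1 table for the series, so no value per sample or per treatment could be given, no effect of auxin was measured, and depth per sample is unknown here.

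Hox genes encode homeodomain transcription factors that give cells their position along the body axis. Their 4 clusters arose by duplication of a single ancestral cluster, and genes are numbered by their order, with group 13 at the end that is used most posteriorly. In blood, Hoxa9, Hoxa10 and Hoxb4 are known as factors of stem and progenitor cells. In limb buds the Hoxd cluster is known to lie between domains on either side, each holding enhancers for a different part of the limb.

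The clusters also share small RNA genes, which show their common descent in sequence. In the RefSeq order of GRCm38.p6, a miR-196 gene lies between Hoxa9 and Hoxa10, between Hoxb9 and Hoxb13, and between Hoxc9 and Hoxc10. A miR-10 gene lies inside the Hoxb3 record, and another lies inside the records of Hoxd3 and Hoxd4. The RefSeq mature sequences are shown 5′ to 3′ with the seed, bases 2 to 8, in capitals.
miR-196b-5p at Hoxa: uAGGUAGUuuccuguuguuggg
miR-196a-5p at Hoxb and Hoxc: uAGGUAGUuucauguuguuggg
miR-10a-5p at Hoxb: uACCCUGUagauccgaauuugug
miR-10b-5p at Hoxd: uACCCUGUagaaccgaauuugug
All 3 miR-196 genes share 1 seed and both miR-10 genes share another. The loops were not set against these genes, because their positions are given in another genome build than the loops.

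Each cluster had nearly the same number of loops. Hoxa had 10 loops in a window of 160 kb on chromosome 6 (52080000 to 52240000, coordinates of mm9 throughout). Hoxb had 10 loops in 220 kb on chromosome 11 (96030000 to 96250000), Hoxc had 10 in 160 kb on chromosome 15 (102730000 to 102890000) and Hoxd had 11 in 150 kb on chromosome 2 (74480000 to 74630000). All 4 windows held more loops than most adjacent windows of the same width over the chromosomes. Of 16068 windows of 160 kb, 5.36% had 10 or more loops and the median was 1 loop. Of 11679 windows of 220 kb, 9.76% had 10 or more loops, and of 17141 windows of 150 kb, 3.33% had 11 or more. These shares are a description, since there is 1 list with no replicate behind any count, and the adjacent windows are not aligned to loci as the Hox windows are.

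**Figure D1:**
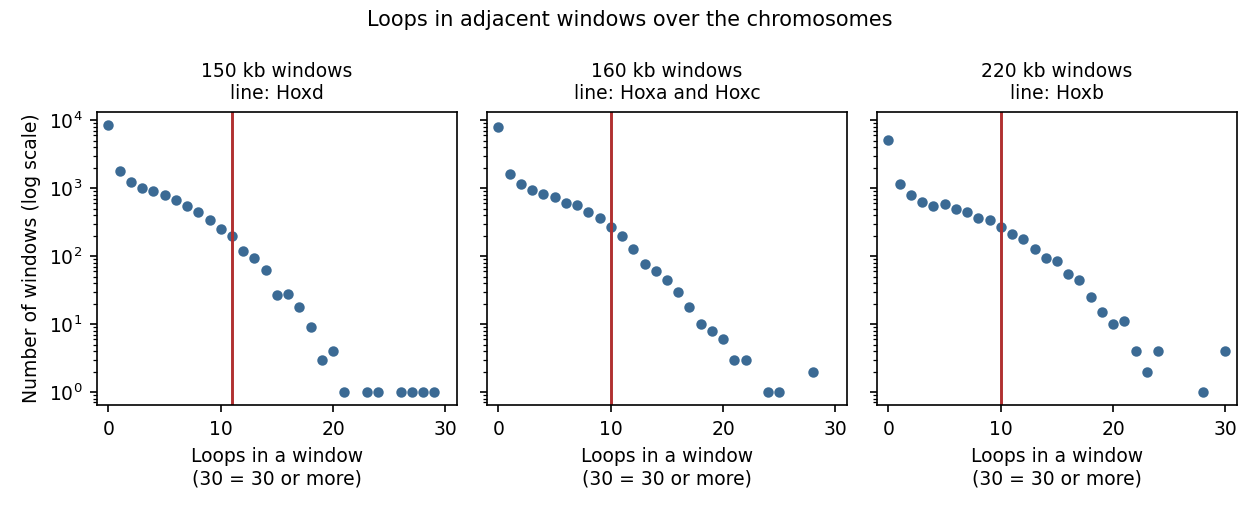
Number of adjacent windows (vertical axis, log scale) by the number of loops with an anchor in the window (horizontal axis), for windows of 150, 160 and 220 kb, with red lines at the clusters. The lines stand at 11 loops for Hoxd and at 10 loops for the other clusters, in the upper tail of each distribution.

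Of the 41 loops, 40 ran from the window to a place outside it, 19 to lower and 21 to higher coordinates, and 1 had both anchors inside a window. That loop was at Hoxc and joined 102814001 to 102824000 with 102838001 to 102848000, a span of 24 kb. Leaving is usual at these widths, since 88.9% of loops with an anchor in an adjacent window of 150 kb left it, as did 87.7% at 160 kb and 82.0% at 220 kb. Hoxa sent 6 loops to lower and 4 to higher coordinates, Hoxb 6 and 4, Hoxc 2 and 7, and Hoxd 5 and 6. In the RefSeq gene order the group 13 gene lies at the low end of Hoxb, Hoxc and Hoxd and at the high end of Hoxa. Read by gene order, 17 loops left on the group 13 side and 23 on the side of the low-numbered genes. On the group 13 side there were 4 loops beyond Hoxa13, a gene of digit and genital development, 6 beyond Hoxb13, 2 beyond Hoxc13, a gene of hair and nails, and 5 beyond Hoxd13, which also shapes digits. On the other side there were 6 loops beyond Hoxa2, which patterns the pharyngeal arches, 4 beyond Hoxb1, a gene of the hindbrain, 7 beyond Hoxc4 and 6 beyond Hoxd1. These counts set the side of a loop against gene order only, and no loop was assigned to a single gene.

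**Figure D2:**
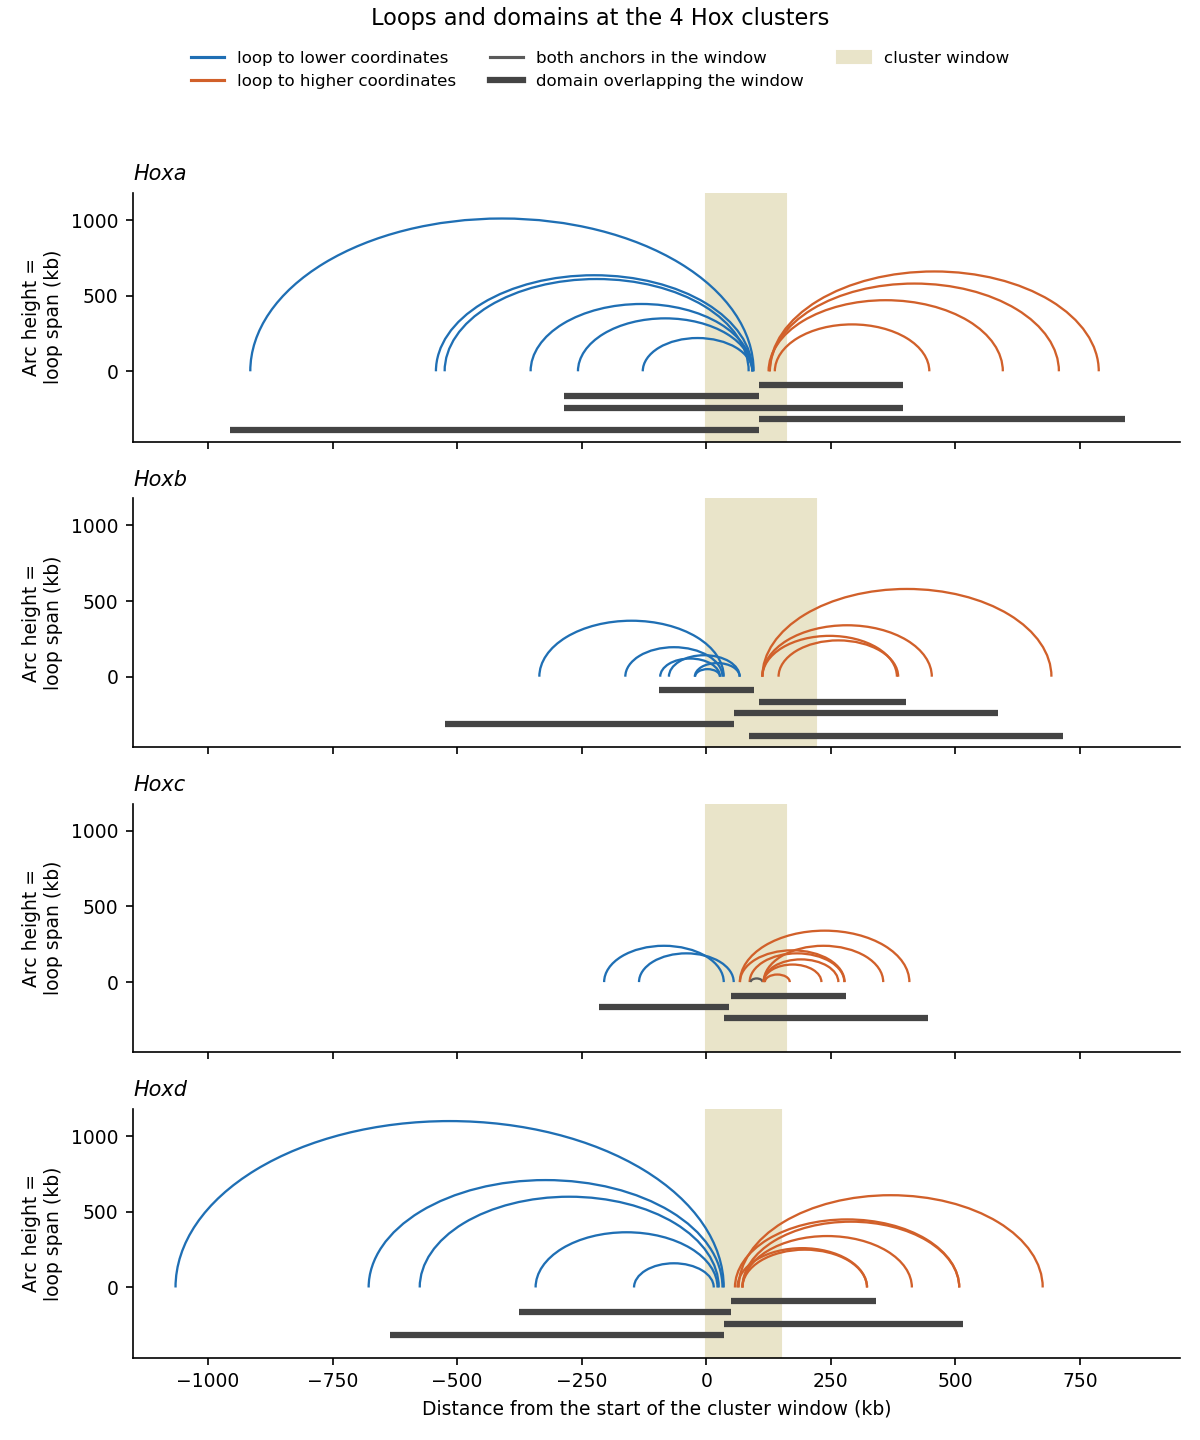
Loops as arcs (arc height is the loop span in kb) and overlapping domains as bars, against the distance from the start of each cluster window in kb, with the windows shaded. Blue arcs run to lower and orange arcs to higher coordinates, and arcs of the colours start from separate parts of each window.

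Inside every window, the anchors of loops leaving to lower coordinates lay entirely below the anchors of loops leaving to higher coordinates. At Hoxa the first kind lay at 52160001 to 52180000 and the other kind at 52200001 to 52222500, with 20 kb between them. At Hoxb they lay at 96052501 to 96102000 and 96137501 to 96180000, 35.5 kb apart. At Hoxc they lay at 102760001 to 102790000 and 102792501 to 102852500, only 2.5 kb apart. At Hoxd they lay at 74490001 to 74520000 and 74532501 to 74557500, 12.5 kb apart. The sides did not overlap in any of the 4 clusters, with the loop inside the Hoxc window counted on neither side. The upper anchor of that loop, 102838001 to 102848000, lay among the Hoxc anchors of loops to higher coordinates. If it were counted as reaching to lower coordinates, the sides at Hoxc would overlap. Loops inside a window were left out of the adjacent windows in the same way. Among adjacent windows with at least 2 loops to each side, the sides did not overlap in 30.1% of 2139 windows of 160 kb, 30.7% of 1941 windows of 220 kb and 29.2% of 2145 windows of 150 kb. The pattern was noticed in these loops and has no test. At Hoxb it rested on the window's edge. With the windows widened by 20 kb, a loop of 1435 kb that ends 2.5 kb past the Hoxb window came in, and the sides then overlapped by 125 kb (a gap of -125 kb).

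**Figure D3:**
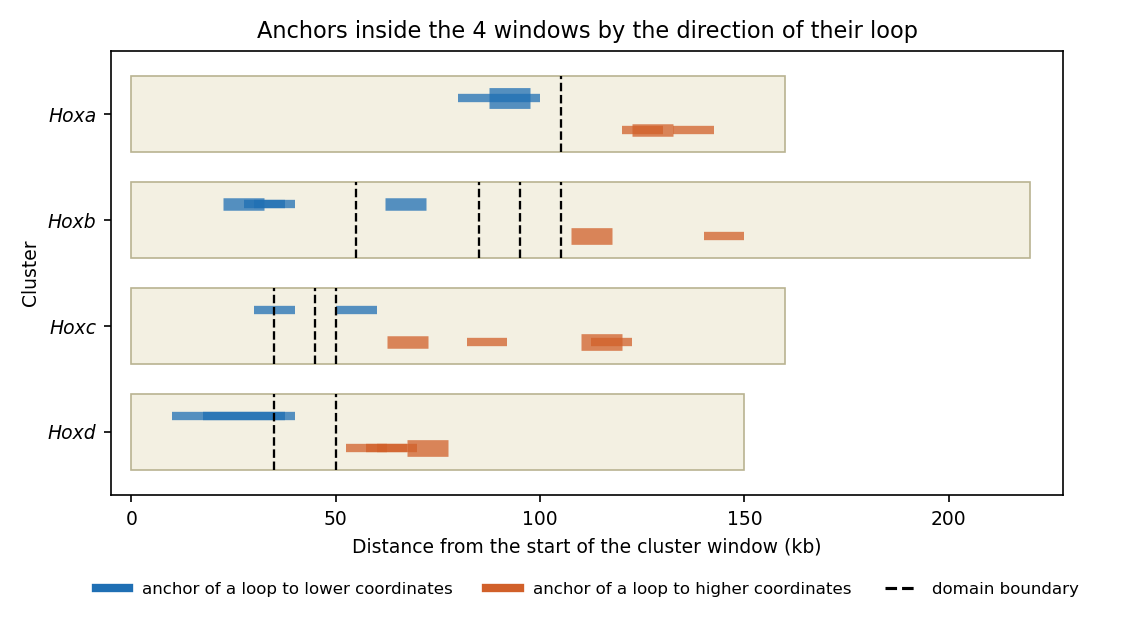
Anchors inside the windows (horizontal axis, distance from the window start in kb) by cluster, blue for loops to lower and orange for loops to higher coordinates, with thicker bars where several loops use the same anchor and dashed lines at domain boundaries. The loop with both anchors inside the Hoxc window is left out, and blue bars end before orange bars start in all 4 windows.

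Each window held domain boundaries at or near the place where the sides part. Hoxa had a single boundary, at 52185000, where 2 domains ended and 2 began, and it lay in the gap between the sides. Hoxb had 4 boundaries, of which those at 96115000, 96125000 and 96135000 lay in the gap and that at 96085000 lay between its lower anchors. Hoxc had 3 boundaries, at 102765000, 102775000 and 102780000, and none lay in its gap of 2.5 kb. Hoxd had boundaries at 74515000 and at 74530000, and the latter lay in its gap. In windows of these widths boundaries are common, since 55.4% of 160 kb windows, 70.3% of 220 kb windows and 52.8% of 150 kb windows held at least 1. Those shares count a boundary anywhere in a window. How often adjacent windows have a boundary in or near the gap between their sides was not counted. The places of the boundaries here are therefore a description without a background.

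Anchors inside the windows often lay close to these boundaries. Of 29 distinct anchors inside the windows, 18 (62.1%, Wilson interval at 95% of 44.0 to 77.3%) had a boundary no more than 20 kb from their midpoint. Over all distinct anchors of the list the share was 26.6%. By cluster the counts were 4 of 6 at Hoxa, 3 of 6 at Hoxb, 3 of 8 at Hoxc and 8 of 9 at Hoxd. At the far ends of the same loops, the count was 13 of 38 anchors, or 34.2% (interval 21.2 to 50.1%). The intervals cover counting only, and anchors of 1 cluster that use the same boundary are not independent. With a distance of 10 kb the share inside the windows was 27.6%, against 16.4% over all anchors, and with 40 kb it was 89.7% against 44.2%.

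Loops over each position were counted to see what passed the parting point. Where the sides do not overlap, loops that leave the window cannot span the gap between them, so the low point restates the order of the anchors. Only loops with no anchor in the window, or with both anchors in it, can add to it. The loop inside the Hoxc window lay above the gap there. Over 514638 positions of the list at steps of 5 kb, the median was 1 loop and the upper quartile 4. At Hoxa no loop of the list spanned positions from 95 to 125 kb past the window start, while up to 6 loops spanned other positions of the window. At Hoxb the lowest number was 1 loop, from 70 to 110 kb, and the highest was 7. At Hoxc it was 2 loops, from 55 to 65 kb, and the highest was 9. At Hoxd it was 1 loop, from 35 to 55 kb, and the highest was 7. The loops that remained over the low points at Hoxb, Hoxc and Hoxd were loops that passed over the whole window with no anchor in it. There was 1 such loop at Hoxb, of 1435 kb, 2 at Hoxc, of 415 and 390 kb, 1 at Hoxd, of 455 kb, and none at Hoxa. Of the 10 boundaries in the windows, 6 were crossed by at most 1 loop, which is near the 63.8% of all 17433 boundaries for which this was so.

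**Figure D4:**
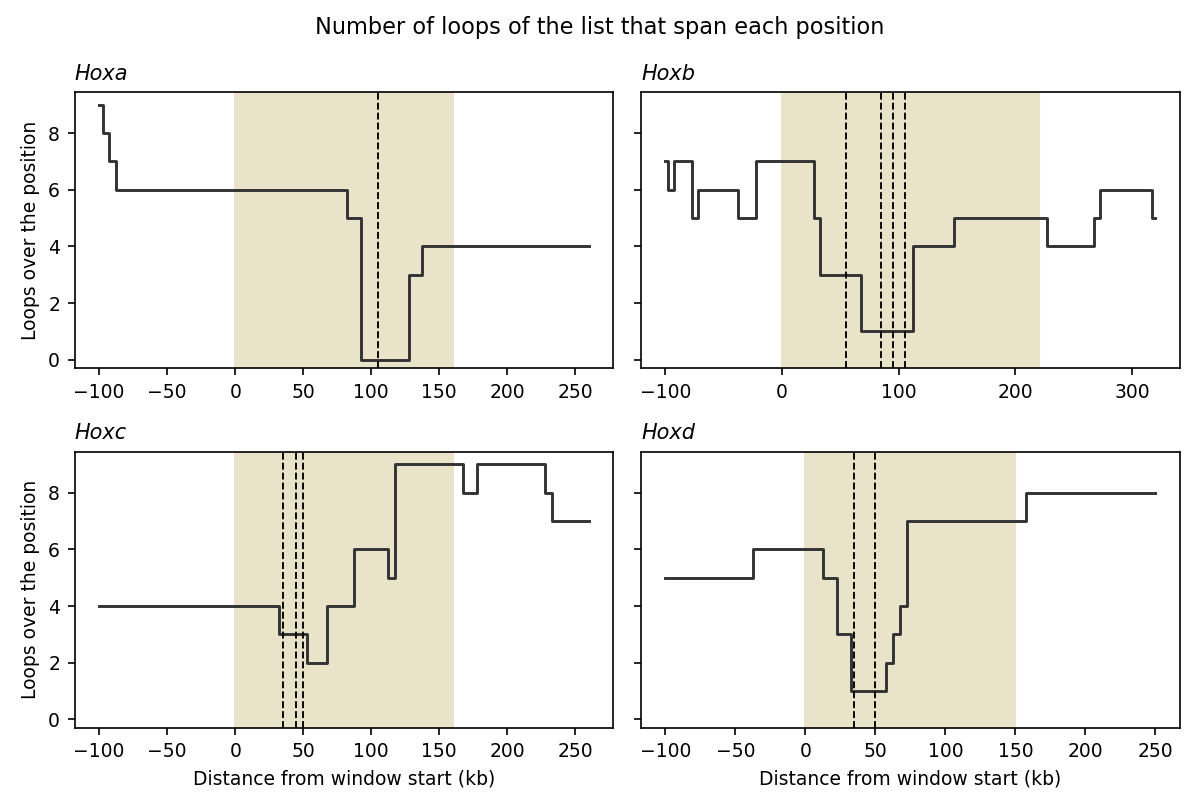
Number of loops of the whole list that span a position (vertical axis) against the distance from the window start in kb (horizontal axis, steps of 5 kb, 100 kb shown on each side), with the windows shaded and boundaries dashed. The line falls to 0 at Hoxa, 1 at Hoxb, 2 at Hoxc and 1 at Hoxd inside the window.

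The anchors also left a margin of each window empty, and the wider margin was on the side of the low-numbered genes. The margin without an anchor was 80 kb on the Hoxa2 side against 17.5 kb on the Hoxa13 side. It was 70 kb on the Hoxb1 side against 22.5 kb on the Hoxb13 side, and 72.5 kb on the Hoxd1 side against 10 kb on the Hoxd13 side. At Hoxc the margins differed least, with 37.5 kb on the Hoxc4 side and 30 kb on the Hoxc13 side. These margins depend on where the windows were drawn, and the distance from an anchor to a gene was not measured.

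Spans divided the clusters into pairs. Hoxa loops had a median span of 525 kb, from 220 to 1010 kb, and Hoxd loops had a median of 435 kb, from 160 to 1100 kb. Hoxb loops had a median of 217.5 kb, from 50 to 580 kb, and Hoxc loops had a median of 190 kb, from 24 to 340 kb. The median over all loops of the list was 175 kb, with quartiles of 92 and 330 kb. The longest spans were those to lower coordinates from Hoxd and Hoxa, and 2 of the 41 loops exceeded 1 Mb, against 3.99% of all loops. Loops shorter than 100 kb numbered 4 of 41, all at Hoxb and Hoxc, against 26.6% of all loops. Ranges of the clusters overlapped, and loops that share an anchor are not replicates, so the medians were not tested against each other.

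The pairs kept their order on each coarser grid. Anchors of the list start on grids of 2, 5 and 10 kb, and loops on the 2 kb grid are short, with a median of 78 kb over the list. Hoxa and Hoxd had 0 loops on that grid, and Hoxb and Hoxc had 5 together. On the 5 kb grid alone, the medians were 445 kb at Hoxa (7 loops) and 365 kb at Hoxd (7 loops), against 232.5 kb at Hoxb (6 loops) and 210 kb at Hoxc (3 loops). The median of the whole list on this grid was 195 kb. On the 10 kb grid they were 610 kb (3 loops) and 605 kb (4 loops) at Hoxa and Hoxd, against 305 kb (2 loops) and 215 kb (4 loops) at Hoxb and Hoxc, with 280 kb over the list.

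**Figure D5:**
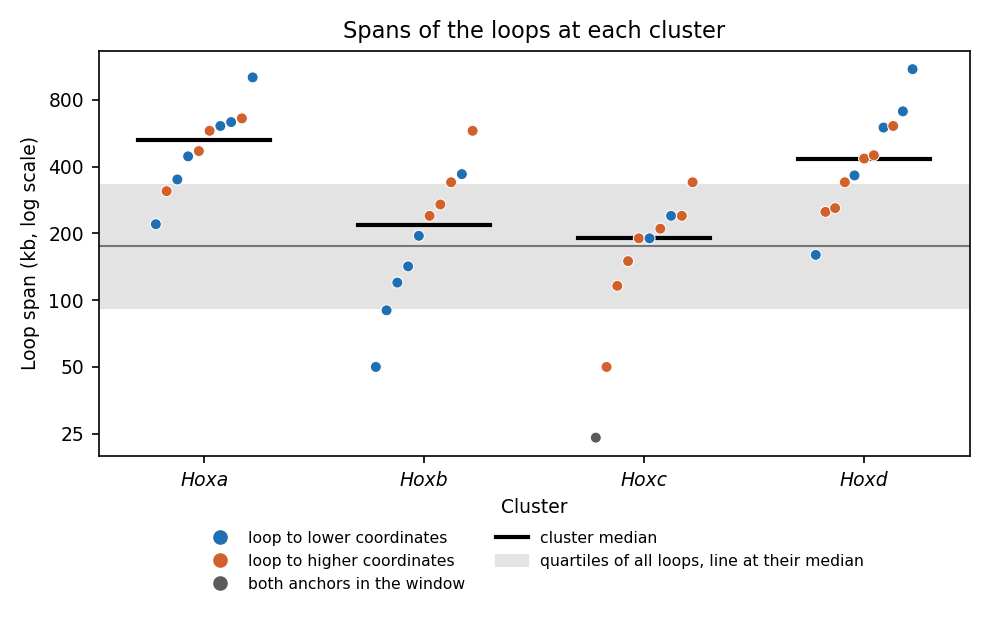
Span of each loop in kb (vertical axis, log scale) by cluster, with blue points for loops to lower coordinates, orange for loops to higher coordinates and grey for the loop inside the Hoxc window. Black bars are cluster medians of 525, 217.5, 190 and 435 kb, and the grey band runs from 92 to 330 kb, the quartiles of all loops.

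Loops were denser around Hoxb and Hoxc than around Hoxa and Hoxd. In the windows widened by 1 Mb on each side, the loops with an anchor there numbered 80 at Hoxb and 53 at Hoxc, compared with 30 at Hoxa and 37 at Hoxd. Per Mb of the widened window these were 36.0 and 24.5 loops against 13.9 and 17.2. Adjacent windows of these widths had medians of 6.94 to 7.21 loops per Mb, so all 4 loci lay above the median of the list. Shorter spans at Hoxb and Hoxc thus went together with more loops nearby, over only 4 loci. Domains around the clusters numbered 15 at Hoxa, 18 at Hoxb, 10 at Hoxc and 13 at Hoxd. Their median sizes were 415, 405, 255 and 400 kb, against 410 kb over the list, and Hoxc stood lowest.

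The Hoxa loops gathered on few places inside the cluster. All 6 loops to lower coordinates shared 1 anchor region, made by merging overlapping anchors, at 52160001 to 52180000. They reached 6 separate regions, from 220 kb (51947501 to 51957500) to 1010 kb away (51160001 to 51170000). To higher coordinates, 3 loops left from 52200001 to 52212500 and reached regions at 52667501 to 52680000, 52782501 to 52792500 and 52860001 to 52872500. A single loop left from the adjoining 52212501 to 52222500 to 52522501 to 52532500. The neighbouring protein-coding genes in RefSeq order are Skap2, which encodes a kinase adaptor, on the low side and Evx1, a homeobox gene, on the high side. All 10 loops lay inside a domain. The 6 to lower coordinates lay in a domain of 1060 kb that ended at 52185000, and the 4 to higher coordinates lay in a domain of 735 kb that began there. A domain of 680 kb, from 51795001 to 52475000, held the whole window.

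Hoxd had 2 anchor regions, which together with the gap between them took up 67.5 kb, beside 62.5 kb for the anchors of Hoxa. The lower region, 74490001 to 74520000, had 5 loops, all to lower coordinates and to 5 separate regions, with spans of 160 to 1100 kb. The other, 74532501 to 74557500, had 6 loops, all to higher coordinates, which reached 4 regions with spans of 250 to 610 kb. It reached the regions at 74797501 to 74810000 and 74980001 to 74992500 with 2 loops each. The nearest neighbours in RefSeq order are Evx2, a homeobox gene, and Lnpk on the low side and Mtx2, a gene of mitochondrial protein import, on the high side. Here 3 of 11 loops were held by no single domain. Of these, 2 ran to lower coordinates, with spans of 1100 and 710 kb, and 1 ran to higher coordinates, with a span of 610 kb. The other 8 lay in domains that ended or began at 74515000 or 74530000.

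Hoxb had 4 anchor regions and links between neighbouring ones through a common partner. To lower coordinates, 96052501 to 96070000 had 4 loops and 96092001 to 96102000 had 2, with spans of 50 to 370 kb, and both reached the region at 96002001 to 96012500, which is 22.75 kb below the window. To higher coordinates, 96137501 to 96147500 had 3 loops and 96170001 to 96180000 had 1, with spans of 240 to 580 kb, and both reached 96407501 to 96420000. The furthest partners were busy places in their own right. That at 95682501 to 95700000 had 7 loops in all and that at 96717501 to 96737500 had 8. Ttll6 and Skap1 are the neighbours in RefSeq order. All 10 loops lay inside a domain.

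At Hoxc 7 loops ran to higher and 2 to lower coordinates, the most uneven counts of the 4 clusters, with no test of the difference. Its region with most loops, 102838001 to 102852500, had 5, of which 4 left to higher coordinates and 1 was the loop inside the window. The regions at 102792501 to 102802500 and 102812001 to 102824000 both reached 103000001 to 103022500, a partner with 6 loops in all. The low side had only 2 loops, each from its own region, at 102760001 to 102770000 and 102780001 to 102790000, with spans of 240 and 190 kb. The loop of 190 kb crossed all 3 boundaries of the window and was the only Hoxc loop held by no domain. Calcoco1 and Smug1, which encodes a DNA repair enzyme, are the neighbours in RefSeq order.

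Several anchor regions of the clusters were hubs. Of 14 anchor regions in the windows, 4 had 5 or more loops, against 7.76% of all regions. They were the lower region of Hoxa with 6 loops, both regions of Hoxd with 5 and 6, and 1 region of Hoxc with 5. The 5 loops of the lower Hoxd region each used a different anchor, and merging of overlaps made these anchors 1 region. No region of Hoxb reached 5. Loops between the partners of these regions were also counted. At the Hoxa region 2 of 15 possible pairs of partners were joined by a loop, at the Hoxd regions 0 of 10 and 1 of 6, and at the Hoxc region 0 of 10. That is 3 of 41 pairs, against 18.7% of pairs over all regions with 5 or more loops, and pairs of 1 region are not independent. Of the 35 partner regions outside the windows, 11 had a single loop, the one to the cluster. Over all regions 52.1% had a single loop, but that share counts each region once. Partners were found by following a loop, which favours regions with many loops, so the 2 shares cannot be compared directly. By loops from the cluster, 5 partner regions were reached by 2.

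The sides of a cluster mostly belonged to separate networks, where a network is every anchor region that can be reached from another by following loops. At Hoxa, Hoxb and Hoxd no network contained loops of both sides. At Hoxc 1 network did, and it had 14 regions. The Hoxb sides belonged to large networks of 40 and 23 regions, those of Hoxd to networks of 7 regions each, and those of Hoxa to networks of 12, 6 and 2 regions. Among adjacent windows with at least 2 loops to each side, the sides shared no network in 22.0% of 160 kb windows, 25.3% of 220 kb windows and 21.5% of 150 kb windows. Sides that do not overlap are more easily separate, so this count and that of the anchors are not independent.

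The loops were also set against the domains. Of the 41 loops, 37 (90.2%, Wilson interval at 95% of 77.5 to 96.1%) had both midpoints in 1 domain, and the 86.5% over the list lies inside that interval. With only domains that hold no other counted, the share at the clusters was 48.8%. The share over all loops was not computed for this setting, so the lower value cannot be read as particular to the clusters. Corner loops connect the edges of a domain, here with each anchor midpoint at most 20 kb from an edge. Of the 17 domains that overlapped a window, 4 had a corner loop, against 5.13% of all domains. These were the domain of 295 kb from 96135001 to 96430000 at Hoxb, those of 260 kb from 102515001 to 102775000 and 230 kb from 102780001 to 103010000 at Hoxc, and that of 290 kb from 74530001 to 74820000 at Hoxd. No domain at Hoxa had one.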

How the data were processed

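The deposited loop list and domain list each cover the series of 18 Micro-C samples, and their values are genome coordinates in bp with no score, count or value per sample. Per the submitters' processing notes the build is mm9. The domains were filtered and merged, per the name the authors gave the list. The aligner, callers, resolutions and contributing samples are not given in the sources used here. Columns of per-sample values without a sample numbered 0.

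Starts were read as counted from 0 and printed from 1. All anchors were 10 kb wide, and span was the distance between midpoints. A loop was a member if an anchor overlapped a window by at least 1 bp. Overlapping anchors were merged into regions. Adjacent windows covered the span of the lists on 20 chromosomes. All 38 genes were found in the RefSeq table of GRCm38.p6, used only for names and order, since its build differs. Member genes, regions with 2 or more loops, loops inside a window and the extreme spans were named by rule. The members and lists were chosen with earlier results of these data known. Python 3.11.15, numpy 2.4.6, pandas 2.3.3, scipy 1.17.1 and matplotlib 3.10.9 were used, and the scripts were tested on simulated data. No test was run, as neither list has replicates. Alternatives moved the windows, grids, distances and domains, and the closing section gives their effect.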

Additional observations from a re-analysis of the deposited data

How the results depend on the processing

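Of 87 recomputed values, 77 stayed within 1.5 times a count, or within the 95% interval of a median or share, and 10 did not. Of the 20 chosen after seeing the data, 2 moved, both at Hoxb: the gap between the sides was -125 kb with windows widened by 20 kb and 67.5 kb on the 5 and 10 kb grids only. Domains within 500 kb numbered 7 at Hoxa, 11 at Hoxb and 8 at Hoxd, and domains that hold no other numbered 8 at Hoxa and 10 at Hoxb. Counting only domains that hold no other, 48.8% of the Hox loops lay in 1 domain, with no share over all loops computed beside it. The share of anchors near a boundary was 27.6% at 10 kb and 89.7% at 40 kb. The alternatives behind these values counted fewer domains or loops, or used other distances or edges, and why each value moved was not tested. No paired analysis was possible because neither table separates the samples, and the alternatives for auxin were not run for the same reason. Depth is unknown, so an absent loop may lie below the callers' thresholds.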
